A study of Mus musculus with 6 samples.

Results

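The genes described here are 37 heat shock and endoplasmic reticulum (ER) chaperone genes, read in the liver of mice labelled as Mdr2 knockouts and given lycorine or vehicle. They were taken by name from a table of 58601 rows: 11 act mainly in the cytosol, 4 in the mitochondrion and 22 in the ER or in its stress response. All 37 were matched to a row. Mdr2 is another name of Abcb4, a canalicular pump for phosphatidylcholine, and mice without it have injured bile ducts and cholestasis. Lycorine is an alkaloid of Amaryllidaceae plants, and the study's question was what it does to cholestasis within the liver. There were 3 libraries from lycorine-treated mice and 3 from vehicle-treated mice, so every library shared the Mdr2 genotype. Treatment began at an age of 8 weeks and lasted 2 weeks. The growth label calls the animals Mdr2-HKO where the other labels say knockout, and neither dose, sex nor the driver of a deletion is given there. No wild-type liver was analysed here. The labels do not say that each library is a separate animal, so p-values reflect library-to-library spread, part of which may be technical.

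Cells meet misfolded proteins with a separate response in each compartment. In the cytosol, heat shock factor 1 binds heat shock elements in the promoters of HSP70, HSP90 and small heat shock protein genes, whose products hold unfolded chains, refold them with J-domain partners and nucleotide exchange factors, or pass them on. In the ER, the sensors ATF6, IRE1 and PERK lead to ER stress response elements, and the genes induced there encode BiP and its co-chaperones, lectin chaperones, disulfide isomerases and the machinery that sends misfolded proteins out for degradation. Hepatocytes secrete most plasma proteins and hold a large ER, and the mitochondrial set folds imported enzymes.

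Expression was treated as TPM (transcripts scaled to a fixed total and corrected for transcript length), and each library sums to the same value. Correction for length was not checked, and comparisons of level between genes rest on it. Log2 fold changes are lycorine over vehicle on log2(TPM + 1), which understates the change of weakly expressed genes. A row was tested if its mean over the 6 libraries reached 1 TPM, which 13854 rows and 35 of the 37 chaperone genes did. Hspa1a and Hspa4l were below it. Tests were two-sided with limma, and adjusted p-values are Benjamini-Hochberg values over all tested rows with a threshold of 0.05.

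The makeup of the libraries varied. The mitochondrial genome held 9.48% to 13.2% of TPM in the lycorine libraries and 12.9% to 20.1% in the vehicle libraries. Over the tested rows, vehicle 3 had a mean correlation of 0.759 with the other libraries. This mean was 0.855 to 0.903 for each of the rest. Nuclear genes that code for proteins held 69.5% to 78.1% of TPM in the lycorine libraries and 51.5% to 71.5% in the vehicle libraries, with vehicle 3 lowest. Albumin (Alb), the main plasma protein of hepatocytes, was at 11824 to 19785 TPM in lycorine libraries and at 5039 to 18246 TPM in vehicle libraries, again with vehicle 3 lowest, so the tissue label fits its defining marker. Abcb4 itself was at 8.32 to 32.2 TPM in lycorine libraries and 10.8 to 43.5 TPM in vehicle libraries, and a gene-level value does not show which part of the transcript remained. Sequencing depth cannot be read from TPM and is unknown here. The median of all tested rows was itself 0.22 on the log2 scale, and 69.9% of rows had a fold change above 0. Scaling by the median of ratios between libraries placed that median at -0.02. Fold changes near 0.22 are therefore at the level of the whole table. Where a second fold change is given below as scaled, it is the value with median-of-ratios scaling.

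Promoter sequences from RefSeq (GRCm38.p6), 250 bases before and 50 after each annotated start, were found for 30 of the 37 genes. Some had more than 1 start, which gave 35 windows, and for 32 of the 35 the bases after the start matched a GENCODE transcript. The 7 genes without a window were Hsp90aa1, Hsp90ab1, Hspa8, Hspa9, Hyou1, Manf and Atf6. The ER stress response element, searched on both strands as CCAAT and CCACG with 9 bases of any kind between them, is the site that NF-Y (at CCAAT) and ATF6 (at CCACG) are known to bind. It was present in 8 of the 30 genes (26.7%), against 0.137% of the 27025 genes in the promoter table (0.119% of its 32851 windows). They were Hspa5, Hsp90b1, Calr, Canx, Pdia6, Dnajc3, Creld2 and Syvn1, each of which encodes a protein of the ER. These matches are shown because, of the motifs searched, more ER genes held this element than any other except CCAAT. Each line has the gene's own strand from 5′ to 3′ with 10 flanking bases on either side, and capitals mark the fixed letters of the element, which read CGTGG and ATTGG where it lies on the opposite strand.
Hspa5, chr2:34772025-34772043, plus strand: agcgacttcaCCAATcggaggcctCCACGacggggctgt
Canx, chr11:50325800-50325818, minus strand: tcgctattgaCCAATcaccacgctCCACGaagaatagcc
Dnajc3, chr14:118937827-118937845, plus strand: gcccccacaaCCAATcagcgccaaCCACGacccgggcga
Pdia6, chr12:17266491-17266509, plus strand: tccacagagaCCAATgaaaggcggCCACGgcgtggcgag
Syvn1, chr19:6046532-6046550, plus strand: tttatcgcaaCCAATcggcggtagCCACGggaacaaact
Calr, chr8:84847075-84847093, minus strand: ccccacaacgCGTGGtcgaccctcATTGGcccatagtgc
Creld2, chr15:88819520-88819538, plus strand: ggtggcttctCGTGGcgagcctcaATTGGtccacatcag
Hsp90b1, upstream copy, chr10:86705638-86705656, minus strand: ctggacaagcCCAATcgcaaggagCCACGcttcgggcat
Hsp90b1, downstream copy, chr10:86705533-86705551, minus strand: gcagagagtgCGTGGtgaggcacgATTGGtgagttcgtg

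Distances are counted with the annotated start at 0. In the genes with a single copy the element began at -162 in Calr, the farthest, and ended at -26 in Syvn1, the nearest. Hsp90b1 was the gene with 2 copies, the outer of which began at -212. A shorter relative of the element, ERSE-II, searched as ATTGG and CCACG with 1 base between them, was found in Dnajb11 and Herpud1, 6.67% of the 30 genes, against 0.0444% of all genes (0.0365% of windows). Both of its matches are printed, with capitals on the fixed letters.
Herpud1, chr8:94386377-94386387, plus strand: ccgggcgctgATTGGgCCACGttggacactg
Dnajb11, chr16:22857852-22857862, plus strand: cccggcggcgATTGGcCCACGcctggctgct

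The cytosolic and mitochondrial genes carried another kind of site. The heat shock element with 3 units, GAANNTTC followed by NN and GAA, was found in Hsph1, Hspd1 and Hspe1 (10% of the 30 genes, against 0.662% of all genes and 0.603% of windows). With 2 units, GAANNTTC, which is part of the longer form, it was found in 8 genes: those already named and Hspa1a, Hspa1b, Dnaja1, Bag3 and Hspb1, 26.7% of the 30, against 9.04% of all genes (7.86% of windows). No ER gene held either form in its window. Hspd1 and Hspe1 are divergent neighbours on chromosome 1 whose starts lie 111 bases apart in GENCODE, and the same 4-unit stretch falls in the window of each, read once on either strand. The promoters of Hspa1a and Hspa1b were identical at 296 of 300 bases. Matches of GAA and TTC units are in capitals.
Hspe1, chr1:55088064-55088076, plus strand: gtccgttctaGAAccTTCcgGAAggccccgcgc
Hspd1, chr1:55088059-55088071, minus strand: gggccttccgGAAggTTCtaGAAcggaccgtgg
Hsph1, chr5:149636288-149636300, minus strand: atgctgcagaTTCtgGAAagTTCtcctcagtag
Hspa1b, chr17:34959335-34959342, minus strand: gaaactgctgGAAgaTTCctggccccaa
Dnaja1, chr4:40722344-40722351, plus strand: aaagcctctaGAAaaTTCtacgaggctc
Hspb1, chr5:135887822-135887829, plus strand: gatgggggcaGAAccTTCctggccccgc

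Whole windows are given for Hspa5, Canx and Ficd, because these 3 ER genes differed in pattern: the lycorine libraries overlapped with vehicle for Hspa5, lay above it for Canx and lay below it for Ficd. Capitals mark the ER stress response element in the first and second window and CCAAT, on the gene's strand, in the third.
Hspa5, chr2:34771840-34772139, plus strand: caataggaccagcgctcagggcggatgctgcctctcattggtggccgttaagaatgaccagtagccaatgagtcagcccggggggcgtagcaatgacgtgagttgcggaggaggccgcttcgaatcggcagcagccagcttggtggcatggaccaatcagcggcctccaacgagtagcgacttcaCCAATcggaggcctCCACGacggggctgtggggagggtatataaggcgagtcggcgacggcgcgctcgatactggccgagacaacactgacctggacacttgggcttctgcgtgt
Canx, chr11:50325624-50325923, minus strand: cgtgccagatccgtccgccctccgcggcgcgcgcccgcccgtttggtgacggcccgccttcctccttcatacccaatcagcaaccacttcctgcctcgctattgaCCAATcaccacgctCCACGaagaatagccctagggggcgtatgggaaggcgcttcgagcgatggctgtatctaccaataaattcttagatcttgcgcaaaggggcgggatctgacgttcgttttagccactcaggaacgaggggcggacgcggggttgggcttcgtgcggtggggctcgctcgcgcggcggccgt
Ficd, chr5:113735532-113735831, plus strand: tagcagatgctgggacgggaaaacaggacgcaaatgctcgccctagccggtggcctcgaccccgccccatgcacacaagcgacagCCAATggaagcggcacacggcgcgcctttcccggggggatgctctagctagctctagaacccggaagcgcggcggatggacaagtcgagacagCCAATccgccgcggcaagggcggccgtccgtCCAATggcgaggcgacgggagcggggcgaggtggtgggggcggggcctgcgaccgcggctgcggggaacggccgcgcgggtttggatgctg

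CCAAT alone, which is also part of the ER stress response element and, on the other strand, of ERSE-II, was in 24 of the 30 genes (80%), against 41.1% of all genes (37.4% of windows). The median GC content was 65.8% over the first window of each of the 30 chaperone genes and 52.7% over all windows of the promoter table. TGACGTGG, a site bound by XBP1, was in 0 of the 30 genes and in 0.714% of all genes (0.676% of windows). A match is a run of letters and not a shown binding site, and a gene without one lacks only these letters in this window. The genes were chosen by name for the heat shock and ER stress responses, and the elements are known sites of these responses. The shares are therefore a description of the chosen genes and not a test.

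**Figure D1:**
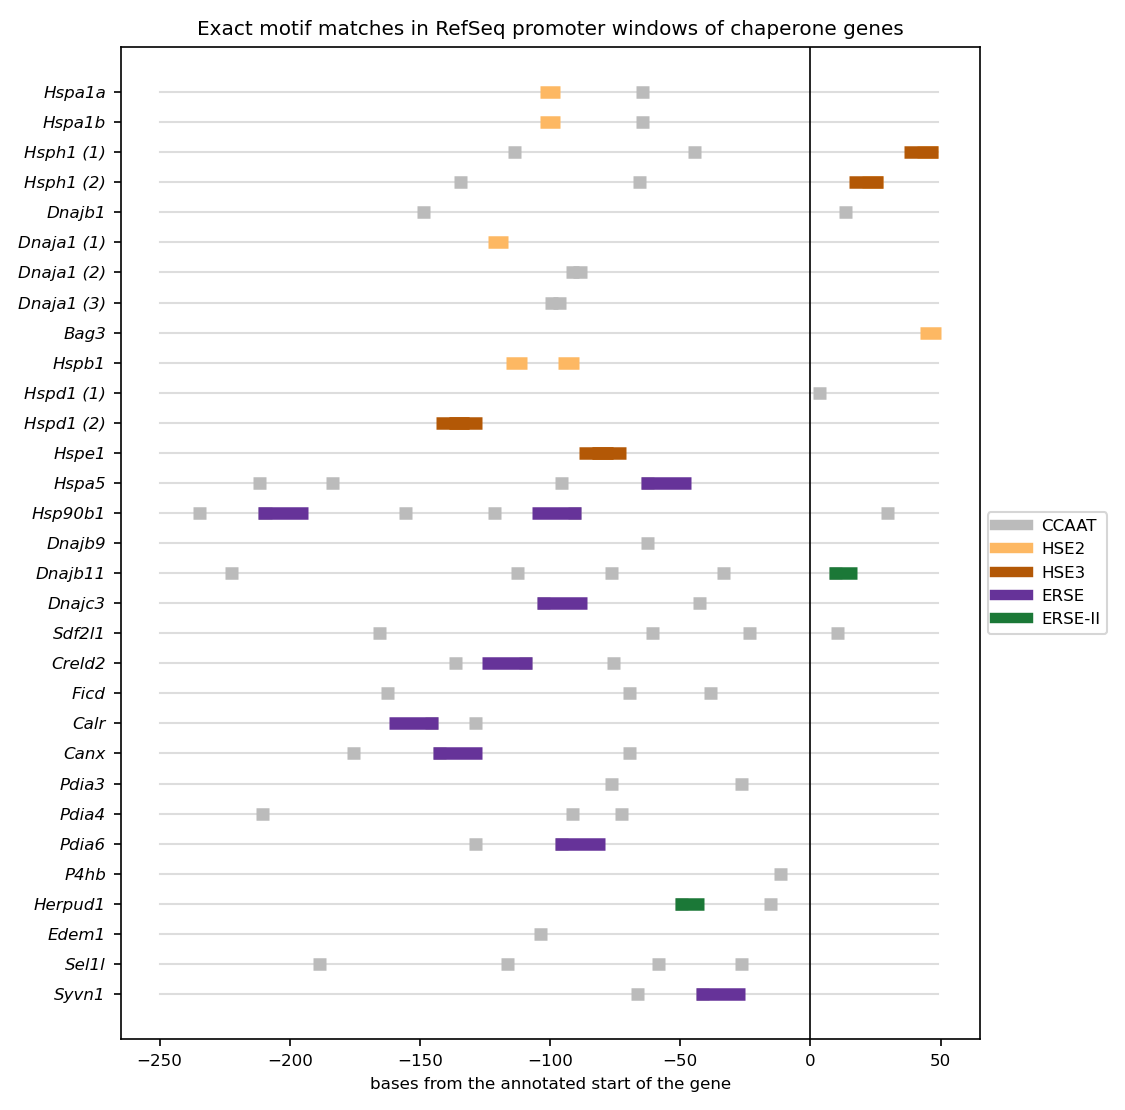
Exact matches to 5 motifs in the RefSeq promoter windows of chaperone genes, with distance in bases from the annotated start on the x axis. Each line is 1 window, a number in brackets tells the starts of 1 gene apart, and colours mark motifs, with ERSE for the ER stress response element and HSE2 and HSE3 for heat shock elements of 2 and 3 units. The heat shock elements lie in the cytosolic and mitochondrial genes at the top, and the ER stress response elements in the ER genes below them.

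No chaperone gene passed the adjusted threshold, and neither did any other row of the table (0 of 13854, percent called 0 in either direction, with limma). At an unadjusted p under 0.05 there were 476 rows, 3 of them chaperone genes: Dnaja1 and Edem1 on the higher side, against 2.79% of all rows, and Ficd on the lower side, against 0.650% of all rows. In 6 genes every lycorine library was above every vehicle library: Dnaja1 in the cytosol, Hspd1 in the mitochondrion and Dnajb9, Canx, P4hb and Edem1 in the ER. This pattern was met by 9.60% of all rows. Ficd was the 1 gene with every lycorine library below every vehicle library, which 1.01% of all rows met. Without vehicle 1 the counts were 17 above (31.3% of all rows) and 1 below (1.79% of all rows). With median-of-ratios scaling, Dnaja1, Dnajb9 and Edem1 remained of the 6 (3.20% of all rows), Hspd1, Canx and P4hb overlapped, and Ficd was again the 1 gene below (3.65% of all rows).

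Log2 fold changes were above 0 in 33 of the 35 tested genes, against 69.9% of all rows, and in 18 of 35 with median-of-ratios scaling, against 47.8% of all rows. Below 0 were Creld2 and Ficd, against 30.1% of all rows. The median was 0.49 over the 9 tested cytosolic genes, 0.33 over the 4 mitochondrial genes and 0.22 over the 22 ER genes, beside 0.22 over all tested rows. With median-of-ratios scaling these medians were 0.20, 0.02 and -0.04, beside -0.02 over all rows. The ER set was thus at the level of the whole table under both scalings. Leaving out 1 library moved its median between -0.10 (without vehicle 3) and 0.57 (without vehicle 1). The median over all rows was higher among better expressed rows. At a minimum mean of 5 TPM it was 0.32 over all 7018 rows and 0.30 over the 30 chaperone genes kept. By compartment the median was then 0.69 in the cytosol, 0.33 in the mitochondrion and 0.25 in the ER.

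**Figure D2:**
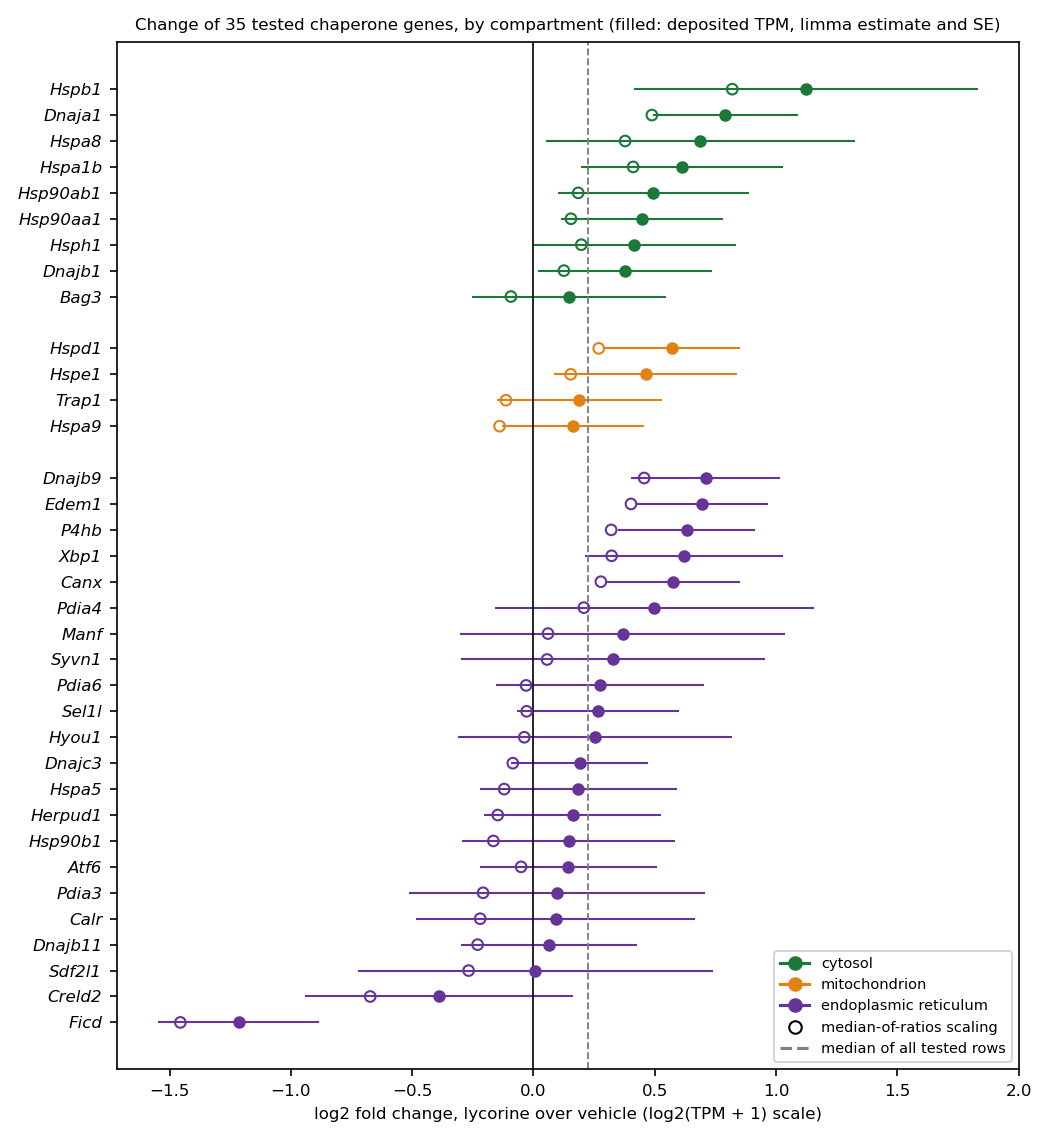
Log2 fold change of the 35 tested chaperone genes, lycorine over vehicle on the log2(TPM + 1) scale (x axis), by compartment. Filled points are limma estimates from the deposited TPM with bars of 1 SE, open points are estimates after median-of-ratios scaling, and the dashed line is the median of all tested rows (0.22). Hspb1 is highest at 1.12 and Ficd lowest at -1.22, and most ER genes lie around the dashed line.

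The cytosolic HSP70 system was led in level by Hspa8, the constitutive HSP70 (HSC70). Hspa8 had 544, 283 and 205 TPM in lycorine libraries 1, 2 and 3, against 361, 274 and 75.6 TPM in vehicle libraries 1, 2 and 3. The groups overlapped, with lycorine 1 highest and vehicle 3 far below the rest, and the log2 fold change was 0.69 (0.38 scaled, SE 0.64, limma's adjusted p 0.832). It was 0.01 without vehicle 3. Stress-inducible HSP70 is encoded by Hspa1a and Hspa1b, whose starts lie 12918 bases apart on chromosome 17. The longest open reading frames of the pair were identical at 1918 of 1929 aligned bases (99.4%), so reads could be split between them and their separate values are uncertain.

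Hspa1b had 4.95, 2.91 and 2.25 TPM with lycorine and 3.26, 1.31 and 1.15 TPM with vehicle, for a log2 fold change of 0.61 (0.41 scaled, SE 0.41, adjusted p 0.832). Hspa1a, not tested, had 1.06, 0.41 and 0.21 TPM with lycorine and 1.24, 0.45 and 0.27 TPM with vehicle. The sum of the pair, which does not depend on the split, was 6.01, 3.32 and 2.46 TPM with lycorine and 4.50, 1.76 and 1.42 TPM with vehicle. The groups overlapped. The inducible pair came to between 1.10% and 1.20% of the Hspa8 level in lycorine libraries and between 0.642% and 1.88% in vehicle libraries. In the deposited values of all 6 libraries the inducible pair was thus small beside Hspa8. How reads that fit both genes of the pair were counted is unknown, and leaving them out would lower the sum.

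Dnaja1 encodes a J-domain protein that delivers substrates to HSP70 and starts its ATP cycle. It had 54.5, 44.7 and 41.1 TPM in lycorine libraries and 31.3, 29.2 and 20.1 TPM in vehicle libraries. The lowest lycorine library was above the highest vehicle library. The mean was 46.7 ± 6.95 TPM with lycorine and 26.9 ± 5.92 TPM with vehicle (SD, n = 3 each). Its log2 fold change was 0.79 (SE 0.30, limma's unadjusted p 0.0310, adjusted p 0.832), and 0.49 with median-of-ratios scaling, where the groups again did not overlap. Dnaja1 spans chromosome 4 from 40722150 to 40737149 of GRCm38 on the plus strand.

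Dnajb1, the J-domain protein most tied to heat shock, had 6.63, 5.41 and 2.76 TPM with lycorine and 4.12, 3.59 and 2.57 TPM with vehicle (log2 fold change 0.38, 0.13 scaled). Lycorine 3 lay inside the vehicle range. Hsph1, an HSP110 protein that exchanges the nucleotide of HSP70, had 3.78, 4.42 and 3.17 TPM with lycorine and 2.88, 1.07 and 4.66 TPM with vehicle (log2 fold change 0.42, 0.20 scaled). The highest and the lowest value were both in vehicle, and the fold change was 0.023 without vehicle 2 and 0.75 without vehicle 3. A related exchange factor, Hspa4l, was between 0.41 and 0.88 TPM in lycorine libraries and between 0.30 and 0.70 TPM in vehicle libraries and was not tested. Bag3, which links HSP70 to small heat shock proteins and to autophagy, had 6.17, 4.28 and 3.27 TPM with lycorine and 6.81, 2.35 and 3.56 TPM with vehicle, with a fold change of 0.15 that was -0.09 with median-of-ratios scaling.

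HSP90 holds signalling proteins such as kinases and steroid receptors in a form ready for activation. Hsp90ab1, the constitutive form, had 306, 205 and 150 TPM with lycorine and 216, 148 and 105 TPM with vehicle (log2 fold change 0.49, 0.18 scaled, SE 0.39, adjusted p 0.832). Hsp90aa1, the inducible form, was lower in level than Hsp90ab1 in every library, at 24.8, 19.1 and 23.2 TPM with lycorine and 23.8, 11.8 and 14.5 TPM with vehicle (log2 fold change 0.45, 0.15 scaled). Both genes overlapped between groups. Hspb1, the small heat shock protein HSP27, had the highest fold change of the 35 genes and the largest SE of the cytosolic ones. It had 166, 51.7 and 78.3 TPM with lycorine and 111, 31.2 and 17.7 TPM with vehicle. Its log2 fold change was 1.12 (0.82 scaled, SE 0.71, adjusted p 0.832) and ranged from 0.56 without vehicle 3 to 1.85 without vehicle 1. Vehicle 1 was above lycorine 2 and lycorine 3.

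**Figure D3:**
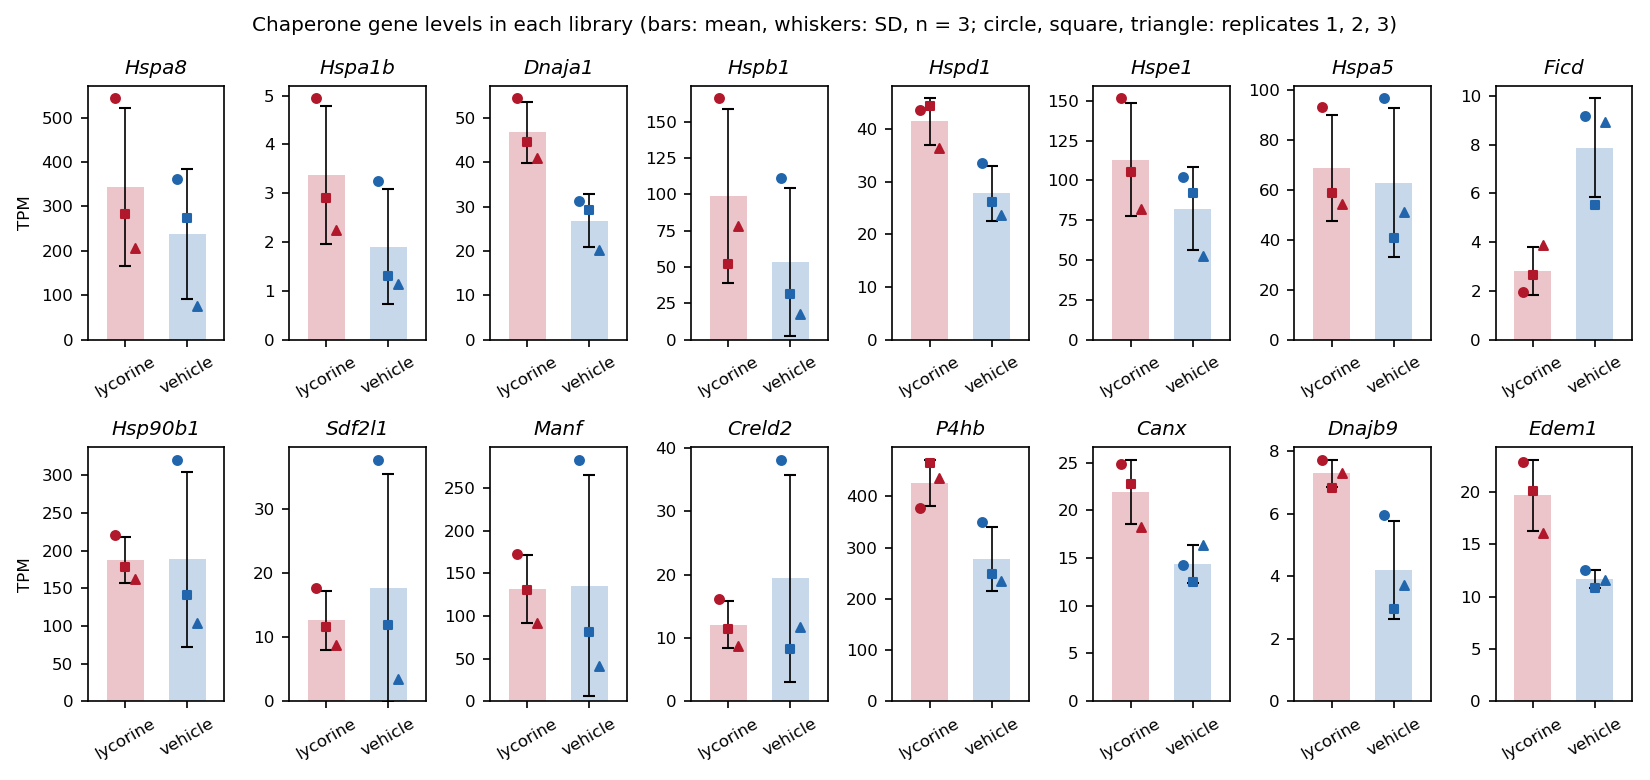
Level in TPM (y axis, from 0 in each panel) of 16 chaperone genes in lycorine libraries (left) and vehicle libraries (right). Bars are means, whiskers are SD (n = 3 each, cut off at 0 for Sdf2l1) and symbols are libraries. Dnaja1, Hspd1, P4hb, Canx, Dnajb9 and Edem1 have all lycorine points above all vehicle points, Ficd has them below, and in Hspa5, Hsp90b1, Sdf2l1, Manf and Creld2 the highest point is vehicle 1.

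In the mitochondrion, Hspd1 (HSP60) and Hspe1 (HSP10) form the chaperonin and its lid. Hspd1 had 43.7, 44.4 and 36.4 TPM in lycorine libraries and 33.6, 26.2 and 23.6 TPM in vehicle libraries, with no overlap. The log2 fold change was 0.57 (SE 0.28, unadjusted p 0.0774, adjusted p 0.832). It was 0.27 with median-of-ratios scaling, where the groups overlapped. Hspe1 had 152, 105 and 82.0 TPM with lycorine and 102, 92.3 and 52.6 TPM with vehicle (log2 fold change 0.46, 0.15 scaled, SE 0.38), and lycorine 3 lay below vehicle 1 and vehicle 2.

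The ratio of Hspe1 to Hspd1 levels was 3.47, 2.37 and 2.25 with lycorine and 3.04, 3.53 and 2.23 with vehicle, so the pair's proportion overlapped between groups. The annotated spans of the pair overlap at their 5′ ends on opposite strands, and the labels do not say that counting used strand, so reads there cannot be told apart. Hspa9 (mortalin), the HSP70 of the import motor, had 37.7, 32.6 and 27.1 TPM with lycorine and 25.6, 25.4 and 36.0 TPM with vehicle. Trap1, the mitochondrial HSP90, had 42.0, 35.4 and 31.4 TPM with lycorine and 40.2, 37.2 and 20.7 TPM with vehicle. The fold changes of Hspa9 and Trap1 were 0.16 and 0.19, below the median of all rows, and -0.14 and -0.11 with median-of-ratios scaling.

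Among ER genes the master chaperone Hspa5 (BiP, GRP78) gave overlapping groups. It had 93.2, 58.7 and 54.1 TPM in lycorine libraries and 96.6, 40.5 and 51.1 TPM in vehicle libraries. The log2 fold change was 0.19 (SE 0.41, adjusted p 0.922), and -0.12 with median-of-ratios scaling. Lycorine 1 and vehicle 1 were both near the top and the other 4 libraries lay between 40.5 and 58.7 TPM. Hsp90b1 (GRP94), the ER HSP90, had 221, 178 and 162 TPM with lycorine and 321, 141 and 104 TPM with vehicle (log2 fold change 0.14, and -0.17 with median-of-ratios scaling). Here vehicle 1 was the highest library and vehicle 3 the lowest.

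Several further ER stress genes had this order. Hyou1 (GRP170), the exchange factor of BiP, had 28.7, 18.2 and 16.6 TPM with lycorine and 39.7, 16.1 and 7.57 TPM with vehicle (log2 fold change 0.25, -0.04 scaled). Sdf2l1, which works with the J-domain protein Dnajb11 on BiP, had 17.7, 11.6 and 8.71 TPM with lycorine and 37.8, 11.9 and 3.49 TPM with vehicle. Manf, a secreted ER protein that binds BiP, had 172, 130 and 92.0 TPM with lycorine and 283, 81.7 and 40.9 TPM with vehicle. In each of these genes vehicle 1 was highest, vehicle 3 was lowest and all lycorine libraries lay between them.

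Creld2, an ER stress-induced protein with disulfide isomerase activity, had 16.2, 11.4 and 8.71 TPM with lycorine and 38.2, 8.30 and 11.8 TPM with vehicle. Its log2 fold change was -0.39 (-0.67 scaled, SE 0.55, adjusted p 0.875) and turned to 0.22 without vehicle 1. For Sdf2l1 the value was 0.01 (-0.27 scaled, SE 0.73) with all libraries, 0.79 without vehicle 1 and -0.76 without vehicle 3. Manf gave 0.37 (0.06 scaled) with all libraries, 1.12 without vehicle 1 and -0.26 without vehicle 3. The sign of these ER genes therefore rested on which vehicle library was kept.

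The 3 J-domain proteins of the ER bring substrates to BiP and gave different values. Dnajb9 (ERdj4), which restores BiP to the sensor IRE1, had 7.72, 6.83 and 7.30 TPM with lycorine and 5.96, 2.95 and 3.71 TPM with vehicle. All lycorine libraries were above all vehicle libraries, with means of 7.28 ± 0.445 TPM and 4.21 ± 1.57 TPM (SD, n = 3 each). Its log2 fold change was 0.71 (SE 0.31, unadjusted p 0.0520, adjusted p 0.832) and 0.46 with median-of-ratios scaling, again with no overlap. Dnajb11 (ERdj3) had 24.1, 17.7 and 14.1 TPM with lycorine and 26.3, 15.5 and 12.9 TPM with vehicle (log2 fold change 0.06, -0.23 scaled, adjusted p 0.969). Dnajc3 (p58IPK), first described as an inhibitor of the kinase PKR, had 9.29, 7.74 and 5.88 TPM with lycorine and 7.24, 6.46 and 5.78 TPM with vehicle (log2 fold change 0.19, -0.09 scaled). Dnajb11 and Dnajc3 overlapped between groups.

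Ficd encodes the ER enzyme that adds AMP to BiP and removes it, which sets how much BiP is held inactive. Ficd had 1.94, 2.67 and 3.88 TPM in lycorine libraries and 9.18, 5.54 and 8.91 TPM in vehicle libraries. The highest lycorine library was below the lowest vehicle library. The mean was 2.83 ± 0.980 TPM with lycorine and 7.88 ± 2.03 TPM with vehicle (SD, n = 3 each), and the ratio of these means was 0.359. The log2 fold change was -1.22 (SE 0.33, limma's unadjusted p 0.00722, adjusted p 0.832), and -1.46 with median-of-ratios scaling. It ranged from -1.42 to -1.04 when libraries were left out 1 at a time. Ficd is on chromosome 5 from 113735803 to 113740600 of GRCm38, plus strand.

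Ficd was also set against BiP within each library, a ratio that a single scaling factor per library cannot alter. Ficd was 2.08%, 4.55% and 7.17% of the Hspa5 level with lycorine and 9.50%, 13.7% and 17.5% with vehicle. The groups did not overlap in this ratio, which reuses the same Ficd values and is not separate support. Its mean was 4.60% ± 2.54 with lycorine and 13.5% ± 3.98 with vehicle (SD, n = 3 each). Hspa5 itself overlapped between the groups, so the separation followed the Ficd values.

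**Figure D4:**
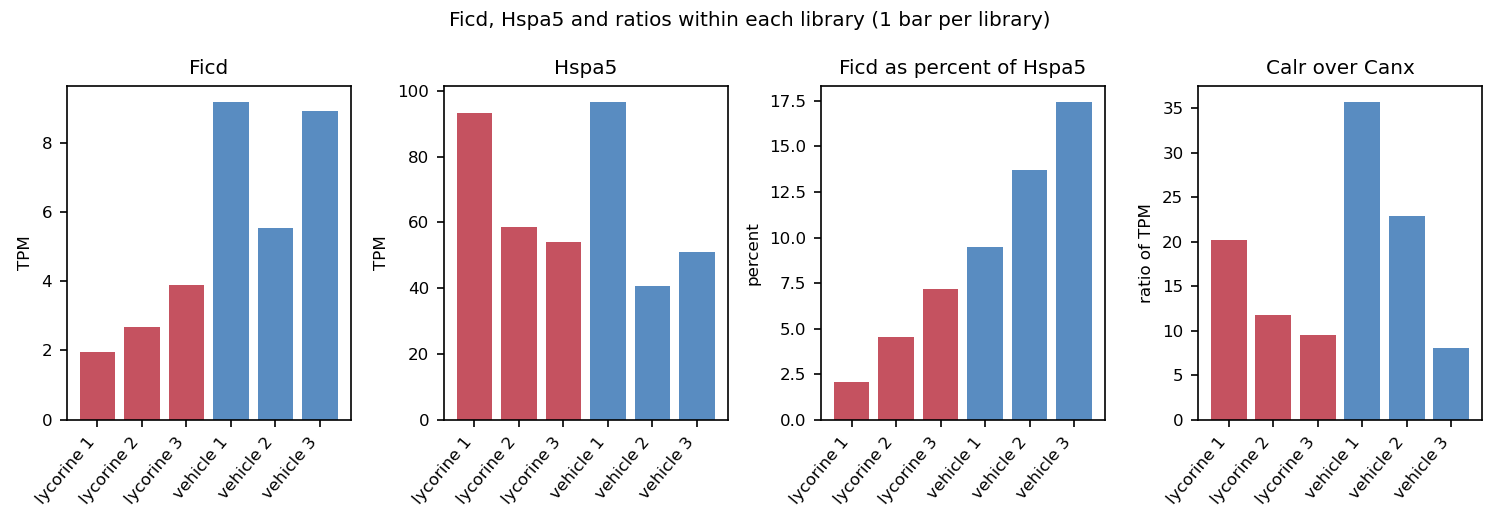
Ficd and Hspa5 levels in TPM, Ficd as percent of Hspa5, and the ratio of Calr to Canx levels, with 1 bar per library and lycorine libraries on the left. Ficd as percent of Hspa5 is at most 7.17 with lycorine and at least 9.50 with vehicle, while Hspa5 and the Calr to Canx ratio overlap between groups.

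The lectin chaperones calreticulin and calnexin hold glycoproteins until they fold. Canx, the membrane-bound form, had 24.8, 22.8 and 18.2 TPM in lycorine libraries and 14.3, 12.5 and 16.4 TPM in vehicle libraries, with no overlap (log2 fold change 0.57, SE 0.28, unadjusted p 0.0750, adjusted p 0.832). With median-of-ratios scaling the value was 0.28 and the groups overlapped. Calr, the soluble form, had 500, 268 and 174 TPM with lycorine and 510, 286 and 132 TPM with vehicle (log2 fold change 0.09, -0.22 scaled, adjusted p 0.973). The ratio of Calr to Canx levels was 20.1, 11.7 and 9.53 with lycorine and 35.7, 22.9 and 8.04 with vehicle, and it overlapped.

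Disulfide isomerases form and reshuffle disulfide bonds in the ER. P4hb (PDI), which is also a subunit of prolyl hydroxylase and of the microsomal triglyceride transfer complex, was the most abundant of the 4 in every library. It had 376, 466 and 436 TPM with lycorine and 350, 249 and 235 TPM with vehicle, without overlap. The means were 426 ± 45.7 TPM and 278 ± 62.9 TPM (SD, n = 3 each), and the log2 fold change was 0.63 (SE 0.28, unadjusted p 0.0575, adjusted p 0.832). With median-of-ratios scaling it was 0.32 and the groups overlapped.

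Pdia3 (ERp57), the partner of calnexin and calreticulin, had 113, 72.5 and 46.7 TPM with lycorine and 130, 87.8 and 27.0 TPM with vehicle (log2 fold change 0.10, -0.21 scaled). Pdia4 (ERp72) had 43.0, 22.0 and 15.7 TPM with lycorine and 44.3, 15.6 and 7.02 TPM with vehicle (log2 fold change 0.50, 0.21 scaled). For Pdia6 (P5) the values were 56.9, 38.8 and 27.7 TPM with lycorine and 45.6, 39.2 and 19.0 TPM with vehicle (log2 fold change 0.27, -0.03 scaled). These 3 overlapped between groups, and each was lowest in vehicle 3. P4hb made up 63.8%, 77.7% and 82.9% of the summed level of the 4 isomerases with lycorine and 61.4%, 63.6% and 81.6% with vehicle, which overlapped.

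The regulators of the ER stress response were at low or middle levels. Xbp1, the transcription factor spliced by IRE1, had 44.2, 29.2 and 18.2 TPM with lycorine and 26.5, 15.6 and 14.9 TPM with vehicle (log2 fold change 0.62, 0.32 scaled, SE 0.41, adjusted p 0.832). Lycorine 3 lay inside the vehicle range. A gene-level value does not tell the spliced form from the unspliced one. Atf6, the sensor that is cut in the Golgi to free a transcription factor, had 2.15, 2.25 and 1.37 TPM with lycorine and 2.16, 1.66 and 1.14 TPM with vehicle (log2 fold change 0.14, -0.05 scaled).

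The remaining 4 genes serve ER-associated degradation, which returns misfolded proteins to the cytosol. Edem1, a lectin that picks out misfolded glycoproteins, had 22.9, 20.1 and 16.1 TPM with lycorine and 12.6, 10.9 and 11.6 TPM with vehicle, with no overlap. Its means were 19.7 ± 3.42 TPM and 11.7 ± 0.842 TPM (SD, n = 3 each). The log2 fold change was 0.70 (SE 0.27, unadjusted p 0.0363, adjusted p 0.832) and 0.40 with median-of-ratios scaling, where the groups again did not overlap. Edem1 spans chromosome 6 from 108828641 to 108859356 of GRCm38, plus strand.

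Sel1l and Syvn1 (HRD1) form the core of the ubiquitin ligase in the ER membrane. Sel1l had 21.3, 26.5 and 22.5 TPM with lycorine and 28.1, 13.6 and 18.6 TPM with vehicle (log2 fold change 0.27, -0.03 scaled). Syvn1 had 17.7, 11.6 and 8.82 TPM with lycorine and 24.5, 9.57 and 3.32 TPM with vehicle (log2 fold change 0.33, 0.06 scaled), the vehicle 1 high and vehicle 3 low order seen in Hyou1. Herpud1, which brings the ligase together with its substrates, had 90.7, 78.6 and 66.3 TPM with lycorine and 44.2, 75.2 and 101 TPM with vehicle (log2 fold change 0.16, -0.15 scaled). In Herpud1 the order of the vehicle libraries was the opposite, with vehicle 1 lowest and vehicle 3 highest.

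Single libraries set much of the spread. Lycorine 1 was the highest library in 16 of the 35 tested genes (31.0% of all rows) and vehicle 1 in 14 (20.7% of all rows). Vehicle 3 was the lowest in 23 (33.5% of all rows) and vehicle 2 in 10 (36.7% of all rows). The compartments differed in which library led. Among the 9 cytosolic genes lycorine 1 was highest in 7 and vehicle 1 in 1, and among the 22 ER genes lycorine 1 was highest in 6 and vehicle 1 in 13. Vehicle 3 was lowest in 6 of the 9 and 14 of the 22.

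The summed level of the 22 ER genes was 1906, 1502 and 1224 TPM with lycorine and 2098, 1146 and 837 TPM with vehicle. For the 11 cytosolic genes it was 1119, 621 and 510 TPM with lycorine and 762, 503 and 246 TPM with vehicle. The 4 mitochondrial genes summed to 275, 218 and 177 TPM with lycorine and 201, 181 and 133 TPM with vehicle. All 3 sums overlapped between groups, and each was lowest in vehicle 3.

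**Figure D5:**
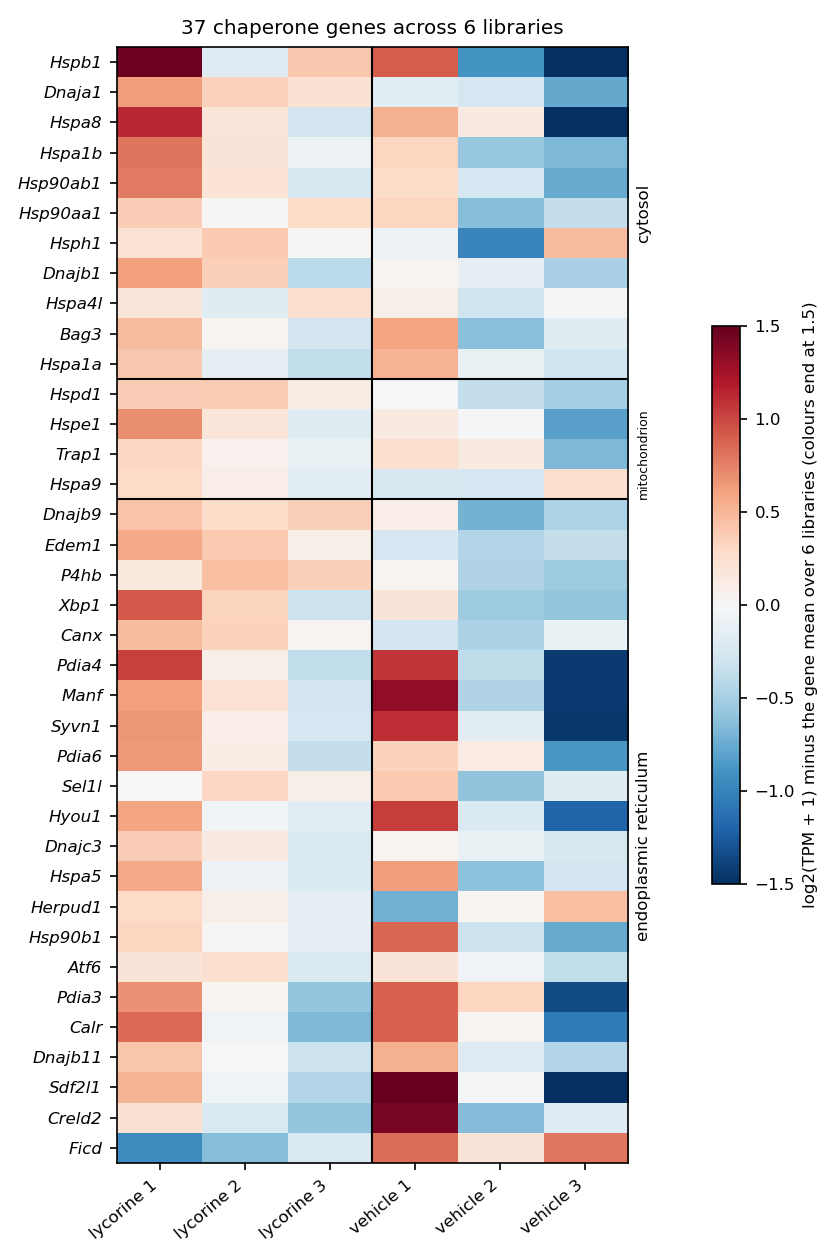
Each chaperone gene in each library as log2(TPM + 1) minus the gene's mean over the 6 libraries (colour, red above and blue below, ending at 1.5), with lycorine libraries on the left and compartments separated by lines. Vehicle 1 is red and vehicle 3 blue over most of the ER block, and the bottom row, Ficd, is blue in all lycorine libraries and red in all vehicle libraries.

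Grouped by promoter element, the genes overlapped in their differences. The 8 genes with an ER stress response element had a median log2 fold change of 0.19, from -0.39 (Creld2) to 0.57 (Canx), and 1 of them, Canx, was above vehicle in every library (9.60% of all rows). Vehicle 1 was the highest library in 5 of the 8 and vehicle 3 the lowest in 5. The 3 genes with a heat shock element of 3 units had fold changes of 0.42 to 0.57, and 1 of them, Hspd1, was above vehicle in every library. Of the 15 tested genes whose windows held none of the ER stress response element, ERSE-II and the 3-unit heat shock element, 5 did not overlap between groups and the median was 0.50. Of these, Dnaja1, Dnajb9, P4hb and Edem1 were above vehicle (9.60% of all rows) and Ficd below it (1.01% of all rows).

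Other genes of the same pathways were read as lists, of which only that of ER-associated degradation had genes at an unadjusted p under 0.05 (2, both higher, against 2.79% of all rows). Over all rows, for comparison with each list, 69.9% had a fold change above 0 (47.8% with median-of-ratios scaling), 9.60% were above vehicle in every library and the median was 0.22 (-0.02 scaled). Among 26 other cytosolic chaperones and heat shock factors, 0 passed the adjusted threshold, 23 had a fold change above 0 (19 with median-of-ratios scaling), 4 were above vehicle in every library (9.60% of all rows) and the median was 0.38 (0.09 scaled). St13, an HSP70 co-factor, had 24.5, 17.4 and 15.8 TPM with lycorine and 13.4, 14.8 and 10.2 TPM with vehicle (log2 fold change 0.54). The chaperonin TRiC and its partner prefoldin fold actin and tubulin. All 14 of their genes had a fold change above 0 (11 with median-of-ratios scaling), none passed, 1 was above vehicle in every library (9.60% of all rows) and the median was 0.45 (0.15 scaled). The 1 gene was the TRiC subunit Cct5, at 33.8, 30.1 and 27.1 TPM with lycorine and 20.3, 15.04 and 22.6 TPM with vehicle (log2 fold change 0.64).

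Of 13 other mitochondrial chaperones and proteases, 0 passed, 11 were above 0 (7 with median-of-ratios scaling), 2 were above vehicle in every library (9.60% of all rows) and the median was 0.31 (0.03 scaled). Grpel1, the exchange factor of mortalin, had 22.9, 18.2 and 14.7 TPM with lycorine and 12.5, 14.1 and 7.04 TPM with vehicle (log2 fold change 0.71). The list of other ER folding enzymes had 23 tested genes, of which 0 passed, 22 were above 0 (15 with median-of-ratios scaling) and 4 were above vehicle in every library (9.60% of all rows), with a median of 0.35 (0.05 scaled). Prkcsh, the beta subunit of glucosidase II that prepares glycoproteins for calnexin, had 97.1, 71.9 and 73.8 TPM with lycorine and 60.0, 49.3 and 48.3 TPM with vehicle (log2 fold change 0.61). Prdx4, the ER peroxiredoxin, had 115, 135 and 102 TPM with lycorine and 89.5, 80.9 and 66.8 TPM with vehicle (log2 fold change 0.57).

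Among 22 other genes of ER-associated degradation and the translocon, 0 passed, 21 were above 0 (16 with median-of-ratios scaling), 4 were above vehicle in every library (9.60% of all rows), and the median was 0.40 (0.10 scaled). Sec61g, a subunit of the ER translocon, had 12.2, 14.7 and 17.0 TPM with lycorine and 6.88, 9.30 and 3.73 TPM with vehicle (log2 fold change 1.09, SE 0.36, unadjusted p 0.0174, adjusted p 0.832). Sec62, a translocon partner that also recruits autophagy to the ER, had 62.6, 58.5 and 56.1 TPM with lycorine and 33.2, 46.2 and 32.6 TPM with vehicle (log2 fold change 0.67, SE 0.28, unadjusted p 0.0451, adjusted p 0.832). Edem2, which acts before Edem1 in trimming mannose, had 96.0, 73.8 and 79.5 TPM with lycorine and 73.7, 51.0 and 24.7 TPM with vehicle (log2 fold change 0.85). Its lowest lycorine library was at 73.77 TPM and its highest vehicle library at 73.68 TPM.

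The listed genes of the stress sensors and the PERK arm gave no shared direction. Of 15 tested genes, 0 passed, 10 were above 0 and 5 below (6 above with median-of-ratios scaling), 1 was above vehicle in every library (9.60% of all rows) and the median was 0.25 (-0.05 scaled). Creb3l3 (CREBH), a liver ER-membrane transcription factor, had 93.6, 75.9 and 89.1 TPM with lycorine and 73.8, 54.8 and 75.8 TPM with vehicle. Eif2ak3 (PERK) had 0.49 to 2.27 TPM with lycorine and 1.17 to 6.23 TPM with vehicle. Mbtps2, the protease that finishes the cut of ATF6, was at 0.59 to 0.73 TPM with lycorine and at 0.77, 0.53 and 12.7 TPM with vehicle, with vehicle 3 far from the other 5 libraries (log2 fold change -1.02).

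Markers of cell types and of tissue handling also moved between libraries. In bulk liver, fewer cells of a type and less RNA per cell cannot be told apart. The 10 hepatocyte markers summed to 54563 to 85794 TPM with lycorine and 26629 to 67272 TPM with vehicle, lowest in vehicle 3, where most chaperone genes were also lowest. The 8 cholangiocyte markers summed to 239, 159 and 66.1 TPM with lycorine and 246, 55.0 and 63.6 TPM with vehicle. The 8 plasma cell markers, of secretory cells with a large ER, summed to 492, 197 and 101 TPM with lycorine and 572, 149 and 131 TPM with vehicle. Most of the plasma cell sum came from Igkc, at 423, 156 and 74.1 TPM with lycorine and 522, 121 and 106 TPM with vehicle. Jchain and Sdc1 of the same list were instead highest in lycorine 1, at 10.7 and 44.6 TPM, against 6.22 and 28.5 TPM in vehicle 1. The cholangiocyte and plasma cell sums were highest in vehicle 1 and next in lycorine 1, as were Hspa5, Hsp90b1, Manf and Sdf2l1. None of these markers was at 0 in all libraries, and their part in the ER values was not tested.

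Of the 9 Kupffer cell markers, 8 had a fold change below 0, 6 lay below vehicle in every library (1.01% of all rows), 0 passed limma's adjusted threshold and 6 were lower at an unadjusted p under 0.05 (0.650% of all rows). Their sum was 253 to 328 TPM with lycorine and 282 to 305 TPM with vehicle, most of it from the complement gene C6, and without C6 it was 33.6 to 81.8 TPM with lycorine and 114 to 172 TPM with vehicle. All 5 tested sinusoidal endothelial markers had fold changes below 0, with sums of 39.7 to 65.2 TPM with lycorine and 34.9 to 118 TPM with vehicle. Ficd shared this side, and the part of these cells in its values was not tested. Stellate cell markers summed to 43.7 to 207 TPM with lycorine and 85.8 to 171 TPM with vehicle, T and NK cell markers to 4.37 to 13.9 TPM with lycorine and 5.99 to 23.4 TPM with vehicle, and neutrophil markers to 1.83 to 4.36 TPM with lycorine and 6.98 to 28.1 TPM with vehicle. Pancreatic acinar markers were at 2.19 to 3.48 TPM with lycorine and 0.78 to 6.72 TPM with vehicle, with 4 of 10 at 0 in every library.

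Immediate early genes, which respond within minutes to stress and tissue handling, had 13 of 14 tested members below 0 and 4 below vehicle in every library, against 1.01% of all rows. With limma 0 passed the adjusted threshold and 3 were lower at an unadjusted p under 0.05, against 0.650% of all rows. They summed to 290, 161 and 207 TPM with lycorine and 462, 341 and 165 TPM with vehicle. The stress-response gene Atf3 was counted here and not with the PERK arm. It had 4.02, 3.21 and 4.14 TPM with lycorine and 16.1, 19.3 and 10.2 TPM with vehicle. Its log2 fold change was -1.72 (SE 0.32, limma's unadjusted p 0.000788, adjusted p 0.832), with no overlap. Heat shock genes of the cytosol did not share that side, since all 9 tested ones had fold changes above 0 (8 with median-of-ratios scaling). The part of handling in either set was not tested.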

How the data were processed

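Liver RNA of 6 libraries was described by 1 table that the authors deposited. Its name speaks of FPKM, but each column sums to 1000000, so the deposited values were treated as TPM. The 37 members and the other lists were chosen with earlier results of these data known. Vehicle columns carry only genotype and number and were assigned to vehicle by elimination. The submitters' processing notes list GRCm38 and mm10. Aligner, quantifier and use of strand were not given in the sources used here. Of 55416 Ensembl identifiers, 52083 were named with GENCODE M21, and 3185 rows were assembled loci without a name. The 13854 rows whose mean reached 1 TPM were fitted on log2(TPM + 1) with limma 3.58.1 (R 4.3.3, variance trend). P-values were two-sided and adjusted by Benjamini-Hochberg over these rows. The procedure was checked on simulated data with independent noise in each gene. That check held no differences shared by a whole library, and the genes changed in it were strongly expressed. Sums, ratios and medians of lists are descriptions without a test. Named genes were all 37 members and, of each other list, up to 3 with the smallest p. Motifs were exact matches on both strands of RefSeq windows. Coding identity used the longest open reading frame of protein-coding transcripts. Alternatives covered the pseudocount, filter, scaling, variance model, library weights, a replicate block and left-out libraries. The sum of Kupffer cell markers without C6 was added after the data were seen.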

Additional observations from a re-analysis of the deposited data

How the results depend on the processing

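With limma, the number of chaperone genes past the adjusted threshold was 0 under each of 17 alternatives. Ficd lay below vehicle in every library under each of them, but most of them could not have altered this. Only median-of-ratios scaling, quantile normalization and protein-coding nuclear genes alone change the order of libraries within a gene. Leaving libraries out cannot end a separation that is already there. Over all rows the number called was 1 at pseudocount 0.1, 1 under array quality weights and 0 to 2 when 1 library was left out. Chaperone genes above vehicle in every library numbered 6 with the deposited values, 3 with median-of-ratios scaling, 13 without both replicate 3 libraries, and 6 to 17 when 1 library was left out (10 without lycorine 3, 17 without vehicle 1). The share of all rows with this pattern was 9.60% with the deposited values, 3.20% with median-of-ratios scaling and 31.3% without vehicle 1. It was not computed for the other settings, and groups with fewer libraries more easily fail to overlap. Compartment medians when 1 library was left out ranged from 0.37 to 0.76 in the cytosol, -0.10 to 0.57 in the ER and 0.16 to 0.50 in the mitochondrion, whose median was 0.020 with median-of-ratios scaling. Whether replicate numbers pair the libraries cannot be settled with 3 libraries a group. The correlation of same-numbered deviations was 0.311, 0.0494 and 0.291, and each lycorine library correlated best with its own number. Correlations between different numbers ran from -0.344 to 0.214. The fit with a replicate block called 0 rows and 0 chaperone genes, with 1033 rows and 6 chaperone genes at an unadjusted p under 0.05, beside 476 and 3 without it.

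Of 590 log2 fold changes of single genes under these alternatives, 73 changed sign, and 16 genes kept their sign throughout, 5 genes having dropped out at a minimum mean of 5 TPM. With median-of-ratios scaling the values that turned were Bag3 -0.093, Hspa9 -0.14, Trap1 -0.11, Hspa5 -0.12, Hsp90b1 -0.17, Hyou1 -0.038, Dnajb11 -0.23, Dnajc3 -0.085, Sdf2l1 -0.27, Calr -0.22, Pdia3 -0.21, Pdia6 -0.030, Atf6 -0.051, Herpud1 -0.15 and Sel1l -0.028. With protein-coding nuclear genes alone they were Bag3 -0.068, Hspa9 -0.097, Trap1 -0.070, Hspa5 -0.078, Hsp90b1 -0.12, Dnajb11 -0.19, Dnajc3 -0.047, Sdf2l1 -0.22, Calr -0.18, Pdia3 -0.16, Atf6 -0.023 and Herpud1 -0.10. With quantile normalization they were Hspa9 -0.12, Trap1 -0.034, Hspa5 -0.12, Hsp90b1 -0.20, Dnajb11 -0.14, Sdf2l1 -0.12, Calr -0.17, Pdia3 -0.17 and Herpud1 -0.14. Under array quality weights they were Hyou1 -0.021, Sdf2l1 -0.27, Calr -0.15 and Pdia3 -0.18, and at pseudocount 5 Sdf2l1 -0.084. Without both replicate 3 libraries they were Trap1 -0.0049, Hsp90b1 -0.100, Hyou1 -0.14, Sdf2l1 -0.54, Manf -0.024, Calr -0.060, Pdia3 -0.24 and Syvn1 -0.098. Leaving out 1 library turned 24 values, with ranges of -0.13 to 0.48 for Bag3, -0.10 to 0.36 for Trap1, -0.075 to 0.54 for Hspa5, -0.20 to 0.61 for Hsp90b1, -0.29 to 0.84 for Hyou1, -0.14 to 0.35 for Dnajb11, -0.76 to 0.79 for Sdf2l1, -0.26 to 1.12 for Manf, -0.81 to 0.22 for Creld2, -0.42 to 0.55 for Calr, -0.55 to 0.56 for Pdia3, -0.092 to 1.16 for Pdia4, -0.10 to 0.52 for Pdia6, -0.0021 to 0.29 for Atf6, -0.16 to 0.43 for Herpud1 and -0.31 to 0.97 for Syvn1. The cause was not tested. With 3 libraries a group and unknown depth, a p above the threshold does not show that a gene was equal in both groups.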
